A study of Mus musculus with 8 samples.

Results

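Gnb5, Gnai1, Prkar1a and Akap5 encode a G protein beta subunit, an inhibitory G protein alpha subunit, a regulatory subunit of protein kinase A (PKA) and a PKA anchoring protein. They were taken by symbol from the 2372 rows of a deposited expression table of mouse medial prefrontal cortex (mPFC). Rows had been matched by position and strand to GENCODE M21 genes (GRCm38), most of them exactly. Each of the 4 genes matched 1 row exactly. Tissue came from 8 adult male mice of 2 genotypes on a C57Bl/6J background, all labelled naive. The 4 CaKO mice, CamK2A-Cre;Gpr158flox/flox, carried a Cre recombinase driven by the CamK2A promoter together with the floxed Gpr158 alleles, and the 4 littermate controls carried the floxed alleles (Gpr158flox/flox) without the Cre. The CamK2A promoter is active in forebrain excitatory neurons, so the other cell types of the dissected tissue should keep the gene. RNA came from whole tissue, and in such samples fewer cells of a type and less RNA per cell cannot be told apart.

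GPR158 is an orphan-class receptor of cortical neurons that has been described as a metabotropic glycine receptor. It binds the complex of RGS7 and the beta subunit encoded by Gnb5 at the membrane, and that complex speeds the switching-off of inhibitory G proteins of the Gi and Go class. Inhibitory alpha subunits such as the product of Gnai1 hold back adenylyl cyclase and so lower cAMP. When cAMP rises it binds regulatory subunits such as the product of Prkar1a and frees the catalytic subunits of PKA, while anchoring proteins such as the product of Akap5 hold PKA beside its targets at synapses. PKA phosphorylates, among others, the transcription factor CREB, which binds the cAMP response element in promoters.

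The table gives, per gene, a normalised read count for each CaKO library and the authors' log2 fold change, p-value and adjusted p-value for CaKO over control. It lists only genes with an unadjusted p below 0.05, so the presence of a gene in it already sets that much, and values of the individual control libraries were not analysed here. Of the 2372 rows, 0 overlapped Gpr158 (chromosome 2: 21367542 to 21830547, GRCm38), so loss of the deleted transcript is not visible in these data and it gave no check of the genotype labels. Reads over the listed genes ranged from 2832931 to 3183638 per CaKO library, and total depth is unknown. Among 1810 genes with a CaKO mean of at least 100 normalised counts, CaKO replicate 3 held the lowest value for 37.1% and CaKO replicate 4 the highest for 36.7%. The tissue label could be checked on few markers of cortical excitatory neurons: Camk2a (37911 to 50901 normalised counts in the CaKO libraries), Tbr1 (2108 to 2517) and Nrgn (9047 to 14513) were present in each CaKO library, and Slc17a7 has no value here.

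The start-site sequences of the 4 genes are shown because the PKA pathway acts on transcription through the cAMP response element, and the 4 genes are members of that pathway. They are RefSeq windows (GRCm38.p6) of 250 bases before and 50 after a transcription start, written 5′ to 3′ on the gene's strand. Capitals mark TGACG or its reverse complement CGTCA, the short element, and TGACGTCA, the full element, which contains both. All 4 genes had a window, and Prkar1a, which has several alternative starts, had 6.
Gnb5, chr9:75306038-75306337, + strand: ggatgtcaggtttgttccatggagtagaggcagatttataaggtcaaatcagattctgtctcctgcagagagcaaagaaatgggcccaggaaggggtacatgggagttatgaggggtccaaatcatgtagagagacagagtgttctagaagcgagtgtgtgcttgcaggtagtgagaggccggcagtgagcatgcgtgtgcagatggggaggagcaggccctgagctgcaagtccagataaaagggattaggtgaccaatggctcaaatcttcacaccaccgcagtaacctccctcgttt
Gnai1, chr5:18360364-18360663, - strand: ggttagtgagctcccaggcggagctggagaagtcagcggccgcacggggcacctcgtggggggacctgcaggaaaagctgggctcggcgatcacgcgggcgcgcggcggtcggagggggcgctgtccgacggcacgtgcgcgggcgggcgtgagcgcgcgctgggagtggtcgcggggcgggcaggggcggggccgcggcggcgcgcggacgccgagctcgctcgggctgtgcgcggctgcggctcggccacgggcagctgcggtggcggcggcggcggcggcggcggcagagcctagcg
Prkar1a, chr11:109650699-109650998, + strand: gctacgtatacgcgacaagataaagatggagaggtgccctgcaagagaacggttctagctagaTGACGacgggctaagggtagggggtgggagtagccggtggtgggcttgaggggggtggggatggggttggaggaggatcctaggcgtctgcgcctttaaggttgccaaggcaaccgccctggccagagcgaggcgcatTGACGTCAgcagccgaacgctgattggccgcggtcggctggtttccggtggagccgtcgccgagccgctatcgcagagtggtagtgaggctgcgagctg
Akap5, chr12:76324641-76324940, + strand: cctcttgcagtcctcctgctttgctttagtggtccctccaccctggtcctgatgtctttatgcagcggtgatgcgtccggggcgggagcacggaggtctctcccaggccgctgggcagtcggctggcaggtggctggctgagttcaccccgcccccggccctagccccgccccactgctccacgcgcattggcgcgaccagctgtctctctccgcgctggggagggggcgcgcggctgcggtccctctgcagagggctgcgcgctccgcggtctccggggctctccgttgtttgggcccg
The full element was found in 2 overlapping windows of Prkar1a, 1 of which is printed, where it begins at base 202, upstream of the start at 109650949. In the other window, whose start is at 109650862, the same element begins at base 289 and so lies downstream of that start. Both starts lie inside the gene as the table bounds it. The same element, searched on both strands, occurred in 1.79% of 32851 windows of this length in the RefSeq table and in at least 1 window of 2.03% of 27025 genes. None of the windows of Gnb5, Gnai1 and Akap5 held either element. The short element occurred in 20.8% of all windows. A match is a description of letters and not of CREB binding, which was not measured. The GC content of the windows was 51% for Gnb5, 80% for Gnai1, 62.7% for the printed Prkar1a window and 70.7% for Akap5.

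Of the 4 genes, 3 had a positive deposited fold change in CaKO (Gnb5, Gnai1 and Prkar1a) and 1 a negative one (Akap5), but none passed the adjusted p threshold of 0.05. In the authors' deposited table, for which DESeq2 is among the named tools, 419 of 12938 genes passed that threshold, or 3.24%, against 0 of these 4. All 4 had an unadjusted p below 0.05, which the listing itself requires, and 15.8% of the 12938 genes did so. At an adjusted p below 0.1, 5.19% of the 12938 genes passed and so did 1 of the 4, Akap5. Their adjusted p-values in the authors' deposited table ran from 0.0814 for Akap5 through 0.162 for Prkar1a and 0.256 for Gnb5 to 0.301 for Gnai1. The differences were small, between 1.11-fold and 1.18-fold for the 3 positive ones in the authors' deposited table.

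Gnb5 encodes the atypical beta subunit that pairs with RGS7 and its relatives and is required for their stability. The gene (ENSMUSG00000032192.9, chromosome 9: 75306288 to 75345876, plus strand) has 3115 bases of exon sequence and up to 13 exons per transcript. Its CaKO libraries held 1892, 2091, 2331 and 2152 normalised counts in replicates 1 to 4. CaKO replicate 3 was highest and CaKO replicate 1 lowest, a range of 0.30 on the log2 scale. The mean was 2116 ± 181 normalised counts in CaKO (SD, n = 4), against a control level of 1788 that the deposited fold change implies. The authors' deposited table lists Gnb5 at a log2 fold change of 0.24 (adjusted p = 0.256), and the deposited p implies a 95% interval from 0.02 to 0.47. Each of the 4 CaKO libraries lay above the implied control level, although the range among them exceeded the fold change. With 1 CaKO library left out in an approximate recalculation, the unadjusted p was 0.0166, 0.0422, 0.114 and 0.055 without CaKO replicates 1 to 4, which is above 0.05 without replicate 3 or 4. The antisense gene Gm19531 covers 7.96% of the exon sequence of Gnb5 on the opposite strand, and use of strand in the counting is not given in the sources used here.

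Gnai1 encodes an alpha subunit of the Gi class, which is the kind of G protein that the RGS7 complex acts on. It lies on chromosome 5: 18265135 to 18360355 (ENSMUSG00000057614.6, minus strand), with 3135 bases of exon sequence in 8 exons. The CaKO libraries held 5459, 4989, 5548 and 4158 normalised counts in replicates 1 to 4. CaKO replicate 4 stood below the other 3, and Gnai1 had the widest spread of the 4 genes, with a coefficient of variation of 12.6% against 1.41% expected from counting alone. The mean was 5038 ± 636 normalised counts in CaKO (SD, n = 4), against an implied control level of 4264. For Gnai1 the authors' deposited table lists a log2 fold change of 0.24 (adjusted p = 0.301), with an implied 95% interval from 0.0049 to 0.48. Only 3 of the 4 CaKO libraries lay above the implied control level, since CaKO replicate 4 was at 0.975 of it. The range among the CaKO libraries, 0.42 on the log2 scale, was wider than the fold change. In the same recalculation the unadjusted p was 0.124, 0.059, 0.141 and 0.0131 without CaKO replicates 1 to 4, and it was below 0.05 only without replicate 4.

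Prkar1a encodes the type I alpha regulatory subunit, which binds cAMP and keeps the catalytic subunits of PKA inactive until it does. The gene (ENSMUSG00000020612.16, chromosome 11: 109649405 to 109669656, plus strand) has 4321 bases of exon sequence and up to 12 exons per transcript. Its values were 13161, 13199, 13573 and 12770 normalised counts in CaKO replicates 1 to 4. These were the tightest of the 4 genes, with a coefficient of variation of 2.49% and a range of 0.09 on the log2 scale. The mean was 13176 ± 328 normalised counts in CaKO (SD, n = 4), against an implied control level of 11917. The authors' deposited table lists Prkar1a at a log2 fold change of 0.14 (adjusted p = 0.162), and the implied 95% interval ran from 0.03 to 0.26. Every CaKO library was above the implied control level, by a ratio of 1.07 to 1.14. That level comes from the same fold change and holds no spread of the controls, so this is no separate support. The fold change exceeded the range among the CaKO libraries. Its size was rank 6 from the smallest among the 2047 listed genes of the adjustment, whose median size by the authors' deposited table was 0.34 in log2 units. Its implied standard error was 0.06, against a median of 0.13 for those genes. With each CaKO library left out in the recalculation, the unadjusted p ranged from 0.0116 to 0.0394.

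Akap5 encodes a postsynaptic scaffold that anchors PKA together with the phosphatase calcineurin and protein kinase C near glutamate receptors. It lies on chromosome 12: 76324891 to 76334153 (ENSMUSG00000021057.15, plus strand), with 6824 bases of exon sequence in at most 2 exons. The CaKO libraries held 1764, 1550, 1519 and 1588 normalised counts in replicates 1 to 4. CaKO replicate 1 was above the other 3, which lay close together. The mean was 1605 ± 109 normalised counts in CaKO (SD, n = 4), against an implied control level of 1921. For Akap5 the authors' deposited table lists a log2 fold change of -0.26 (adjusted p = 0.0814), with an implied 95% interval from -0.43 to -0.08. All 4 CaKO libraries were below the implied control level, at ratios from 0.791 to 0.918, and the fold change was larger than the CaKO range of 0.22 on the log2 scale. An approximate recalculation with 1 CaKO library left out, which widens the implied standard error for 3 libraries, put the log2 fold change at -0.31 with an unadjusted p of 0.0014 without CaKO replicate 1, inside the range of p-values of called genes (up to 0.00162). Without CaKO replicates 2, 3 and 4 the unadjusted p was 0.0117, 0.0152 and 0.00831, outside that range.

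**Figure D1:**
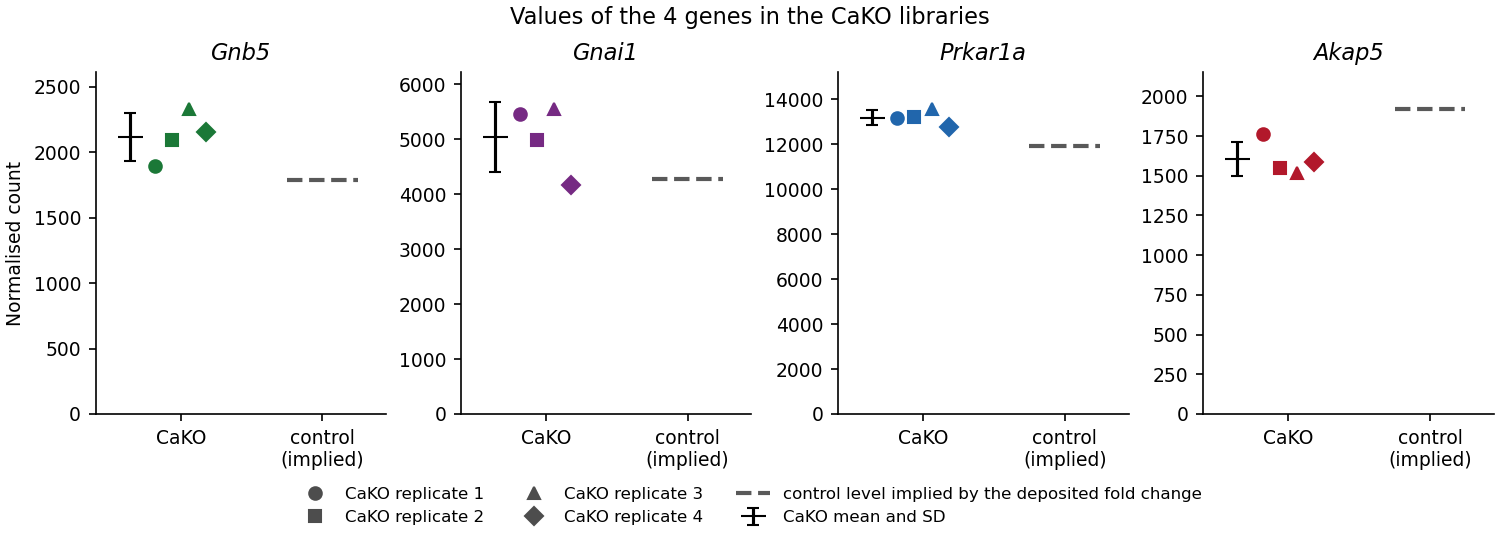
Normalised counts (linear axis from 0) of Gnb5, Gnai1, Prkar1a and Akap5 in CaKO replicates 1 to 4, with the CaKO mean and SD to their left and, right of them, a dashed line at the control level implied by the deposited fold change. CaKO replicate 4 of Gnai1, at 4158, is the only value of the first 3 genes below its line, and all 4 values of Akap5 lie below theirs.

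Per kilobase of exon sequence, the transcript levels of the 4 genes in CaKO were well separated. Prkar1a had the highest level, 3049 ± 75.9 normalised counts per kilobase (SD, n = 4), followed by Gnai1 at 1607 ± 203 and Gnb5 at 679.4 ± 58.2. Akap5 had the lowest, at 235.2 ± 16.0 normalised counts per kilobase. No pair of neighbours in this order overlapped in the 4 CaKO libraries: the lowest Prkar1a level (2955) was above the highest Gnai1 level (1770), the lowest Gnai1 level (1326) above the highest Gnb5 level (748.4), and the lowest Gnb5 level (607.2) above the highest Akap5 level (258.5). These lengths count every annotated exon of a gene, so levels of a gene whose cells use short transcripts are understated.

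Across the CaKO libraries the 4 genes did not share one profile. CaKO replicate 3 held the highest value of Gnb5, Gnai1 and Prkar1a and the lowest of Akap5. CaKO replicate 1 held the highest value of Akap5 and the lowest of Gnb5. The summed level of the 5 excitatory neuron markers with a value was 49905 normalised counts in CaKO replicate 3, against 65190 to 68589 in the other 3 libraries. Camk2a made up most of this sum, at 37911 in CaKO replicate 3 against 47897 to 50901 in the others. Tbr1 was at 2108 against 2220 to 2517. Each of the 5 markers was lowest in CaKO replicate 3. The part of these differences between libraries in the profiles of the 4 genes was not tested. Profiles were compared by the root mean square difference of log2(value + 0.5) deviations over the 4 CaKO libraries. By this measure Prkar1a and Akap5 (0.0969) and Gnb5 and Prkar1a (0.1002) differed least, and Gnb5 and Gnai1 (0.20) most. A small difference also arises where a gene varies little, as Prkar1a did, so it need not mean a shared direction. In CaKO replicate 3 the deviation was 0.043 for Prkar1a and -0.077 for Akap5. Among 1796 other listed genes with a CaKO mean of at least 100, the closest profiles by the same measure were Mcm4, Tm2d2 and Ngrn for Gnb5 (0.0054 to 0.0098), Lats2, Nhlrc1 and Herc4 for Gnai1 (0.023 to 0.032), Ssna1, Rbl2 and Slc25a51 for Prkar1a (0.012 to 0.015) and Bzw2, Rif1 and Cnp for Akap5 (0.025 to 0.027). With 4 libraries many genes come this close: 58, 17, 86 and 42 genes lay within 0.05 of Gnb5, Gnai1, Prkar1a and Akap5 in turn.

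**Figure D2:**
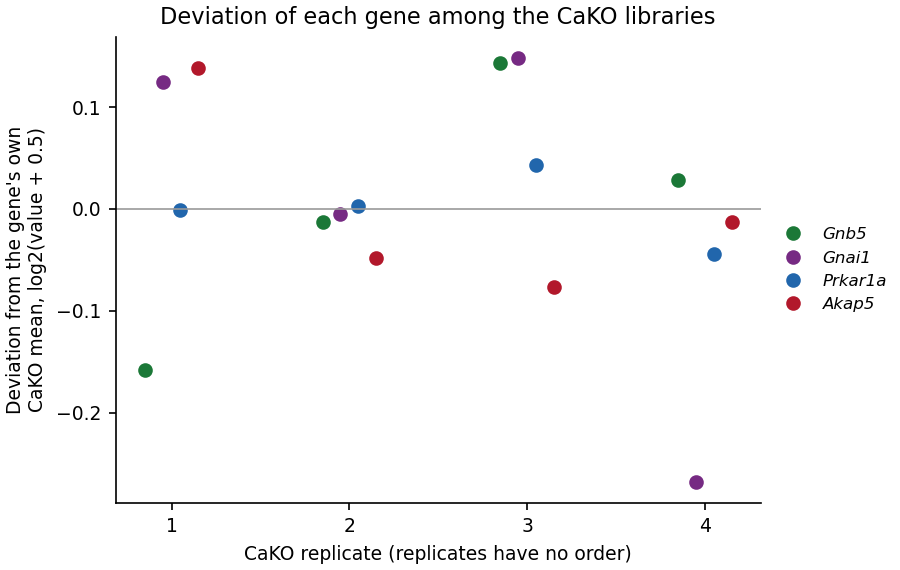
Deviation of each gene from its own mean over the CaKO libraries, on the scale of log2(value + 0.5), by CaKO replicate; colours mark the genes. The Prkar1a points stay within 0.05 of 0, and those of Gnai1 reach from -0.27 to 0.15.

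The wider pathway was described over 160 genes in 10 lists of G protein subunits and regulators, cAMP enzymes, PKA subunits, anchoring proteins, effectors and channels, the 4 genes included. At an unadjusted p below 0.05 in the authors' deposited table, 10 were higher and 13 lower in CaKO, where 7.14% and 8.68% of the 12938 genes were. Counts in the single lists below are small and are to be read beside these shares. At an adjusted p below 0.05, 0 rose and 3 fell, where 1.27% and 1.97% of the 12938 genes did. The 3 that fell were Gnas, Rgs4 and Pde8b. In the approximation without CaKO replicate 3 the number of calls was 1, Rgs4. Over the 2047 listed genes of the adjustment, the only ones it could call, that approximation gave 193 calls, against 419 with all libraries. Another 1 gene, Gng10, has a row but was outside the adjustment, with at most 3.13 normalised counts in a CaKO library, and Gm20503 on the same strand covers 72% of its exons. The other 136 genes have no value here.

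Among alpha subunits, 2 of 16 had a p below 0.05, Gnai1 and Gnas. Gnas encodes the stimulatory subunit, which activates adenylyl cyclase where Gnai1 holds it back. It held 648.3, 675.3, 378.8 and 896.2 normalised counts in CaKO replicates 1 to 4, so CaKO replicate 3 was lowest and CaKO replicate 4 highest. The mean of 649.6 ± 212 in CaKO (SD, n = 4) corresponds to 58.1 normalised counts per kilobase. That level rests on the 11186 bases of all its annotated exons. The authors' deposited table lists Gnas at a log2 fold change of -0.73, a decrease that passed (adjusted p = 0.0243). Without CaKO replicate 3 the approximate value was -0.54, with an unadjusted p of 0.0165, and the call ended. The genes Gm20721 and Nespas cover 13.1% and 8.83% of its exon sequence on the opposite strand. Their part in the count and fold change of Gnas was not tested.

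Among the 17 beta and gamma subunits, Gnb5 and Gng13 were higher and Gnb2 lower at a p below 0.05, and none passed the adjusted threshold. Gnb2, a conventional beta subunit, averaged 2140 ± 296 normalised counts in CaKO (SD, n = 4) and stands at -0.34 on the log2 scale (adjusted p = 0.103) by the authors' deposited table. Its level per kilobase in CaKO, 629.0, was close to the 679.4 of Gnb5. Gng13, a gamma subunit, is listed by the authors' deposited table at a log2 fold change of 0.46 (adjusted p = 0.264), and Chtf18 covers 51.6% of its exon sequence on the opposite strand.

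RGS proteins shorten G protein signals by speeding GTP hydrolysis. In the list of RGS proteins and their partners, 4 of the 25 genes had a p below 0.05, where 15.8% of the 12938 genes had one. Of these 4, 2 were higher and 2 lower. Rgs7, whose product pairs with that of Gnb5, has no value here, and neither do its relatives Rgs6, Rgs9 and Rgs11 nor the anchor Rgs7bp. Rgs4, an abundant cortical regulator of Gi and Gq signals, held 13116, 11184, 12071 and 8994 normalised counts in CaKO replicates 1 to 4, with CaKO replicate 4 lowest. By the authors' deposited table Rgs4 fell by 0.38 in log2 units (adjusted p = 0.0356), and its call ended in the approximation without CaKO replicate 2 (-0.38) or 4 (-0.29). The authors' deposited table gives Rgs12 and Rgs19 log2 fold changes of 0.33 each and Rgs20 one of -0.33, at adjusted p-values of 0.152, 0.162 and 0.118.

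Of 15 other G protein regulators, 3 had a p below 0.05, where 15.8% of the 12938 genes had one. All 3 were higher in CaKO, and none passed. The authors' deposited table gives Pdcl, which helps beta and gamma subunits to assemble, a log2 fold change of 0.34 at an adjusted p of 0.0981. By the authors' deposited table Ric8a, a chaperone of alpha subunits, is at 0.27 (adjusted p = 0.113) and the receptor kinase Grk3 at 0.25 (adjusted p = 0.118) on the log2 scale. The 4 G protein gated potassium channel genes (Kcnj3, Kcnj5, Kcnj6 and Kcnj9) have no value here.

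On the cAMP side, none of the 10 adenylyl cyclases has a value here. Phosphodiesterases are the enzymes that break cAMP down. Of 16, 2 were lower at a p below 0.05, where 8.68% of the 12938 genes were. Pde8b held 837.2, 874.7, 782.4 and 926.4 normalised counts in CaKO replicates 1 to 4, a narrow spread. By the authors' deposited table Pde8b fell by 0.30 in log2 units (adjusted p = 0.0362), and the approximation without CaKO replicate 1 (-0.29) or 3 (-0.26) ended the call. The antisense gene Gm48420 covers 7.6% of its exon sequence. Pde3a is at a log2 fold change of -0.42 (adjusted p = 0.222) by the authors' deposited table.

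Of the 10 PKA subunit and inhibitor genes, Prkar1a and Prkacb were higher and Pkig lower at a p below 0.05, and none passed. Prkacb encodes a catalytic subunit, the part that Prkar1a restrains. It averaged 13147 ± 1134 normalised counts in CaKO (SD, n = 4), and the authors' deposited table lists it at a log2 fold change of 0.19 (adjusted p = 0.295). Its level was 1499 normalised counts per kilobase in CaKO, against 3049 for Prkar1a. Pkig, an inhibitor of the catalytic subunits, is at a log2 fold change of -0.32 (adjusted p = 0.14) by the authors' deposited table. Other regulatory and catalytic subunits, Prkar1b, Prkar2a, Prkar2b and Prkaca, have no value here.

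Akap5 was 1 of 3 anchoring proteins among 21 with a p below 0.05, where 15.8% of the 12938 genes had one. All 3 were lower. By the authors' deposited table Akap12, a scaffold for PKA and protein kinase C, is at a log2 fold change of -0.42 (adjusted p = 0.0873), and the nuclear protein Akap8l one of -0.29 (adjusted p = 0.233). Of 26 effectors and substrates, 3 were lower at a p below 0.05, where 8.68% of the 12938 genes were, and none passed. Ppp1r1b and Ppp1r1a encode inhibitors of protein phosphatase 1 that PKA switches on, and the authors' deposited table lists them at log2 fold changes of -0.47 and -0.27 (adjusted p-values 0.149 and 0.281). Rapgef3, a cAMP sensor that works apart from PKA, is at -0.26 (adjusted p = 0.203) by the authors' deposited table. Partners of the Akap5 scaffold such as Ppp3ca, Gria1 and Dlg4 have no value here.

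**Figure D3:**
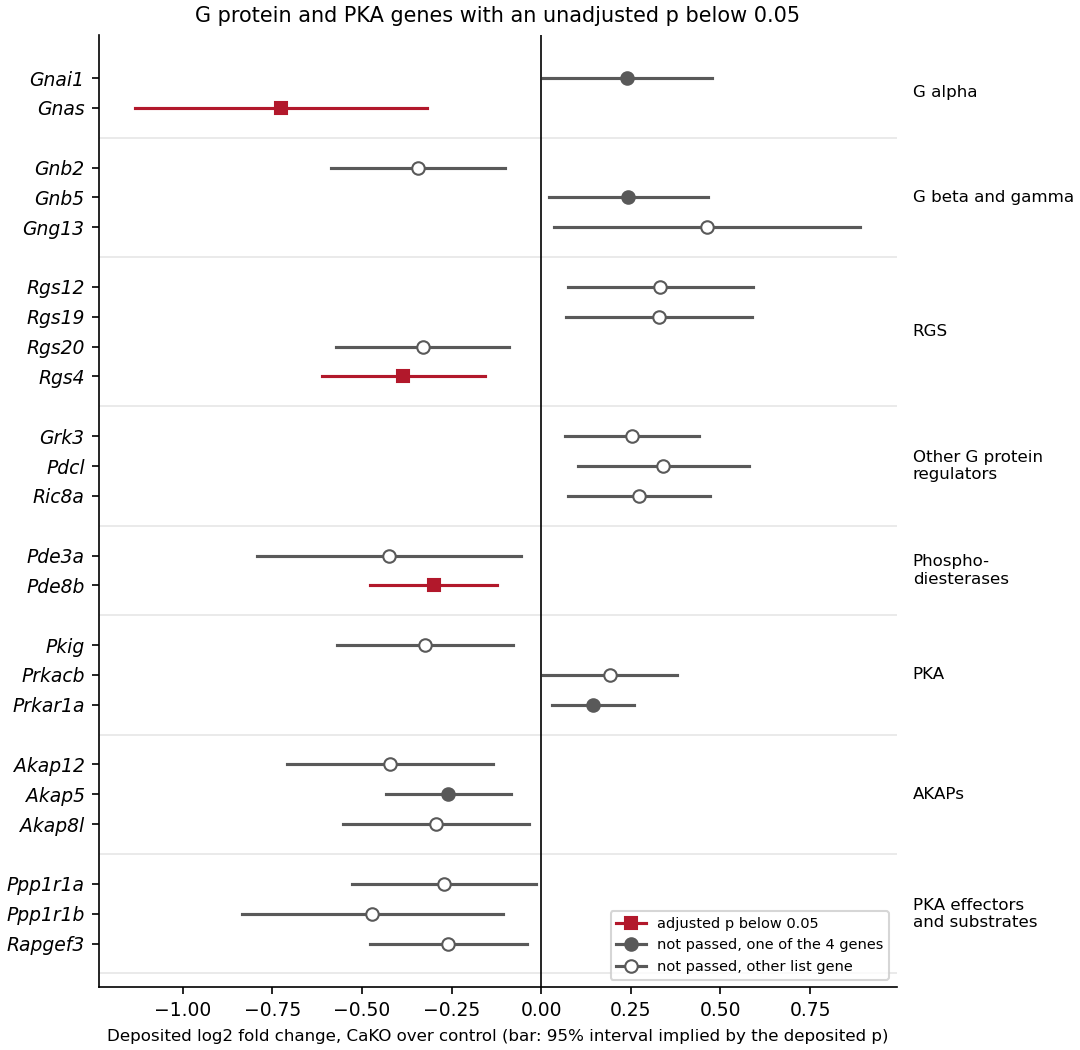
Deposited log2 fold change, CaKO over control, of the 23 G protein and PKA genes with an unadjusted p below 0.05, by role; bars are 95% intervals implied by the deposited p. Red squares (Gnas, Rgs4 and Pde8b) passed the adjusted p threshold of 0.05, filled grey circles are Gnb5, Gnai1, Prkar1a and Akap5, and open circles are other genes that did not pass.

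Markers of the cell types in the tissue were also among the listed genes. In the authors' deposited table, at a p below 0.05, 5 of 14 excitatory neuron markers were lower and 2 of them fell, 10 of 15 oligodendrocyte markers were lower and 6 fell, and 4 of 10 astrocyte markers were lower and 2 fell, with none higher. Over the 12938 genes, 8.68% were lower at that p and 1.97% fell. Of 11 inhibitory neuron markers, 1 was lower and fell (Npy), and of 10 microglial markers 1 was higher and did not pass. Among 12 vascular and blood markers 5 were lower and 2 fell, and both counts include globin transcripts of blood. Among markers of the striatum, which borders the prefrontal cortex and is rich in cAMP signalling proteins, Ppp1r1b at a log2 fold change of -0.47 and Drd1 at 0.41 did not pass by the authors' deposited table. Over the CaKO libraries the summed level of the markers with a value ranged from 49905 to 68589 normalised counts for excitatory neurons, 36631 to 44628 for oligodendrocytes and 10325 to 12908 for astrocytes. Their part in the fold changes of Gnb5, Gnai1, Prkar1a and Akap5 was not tested.

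**Figure D4:**
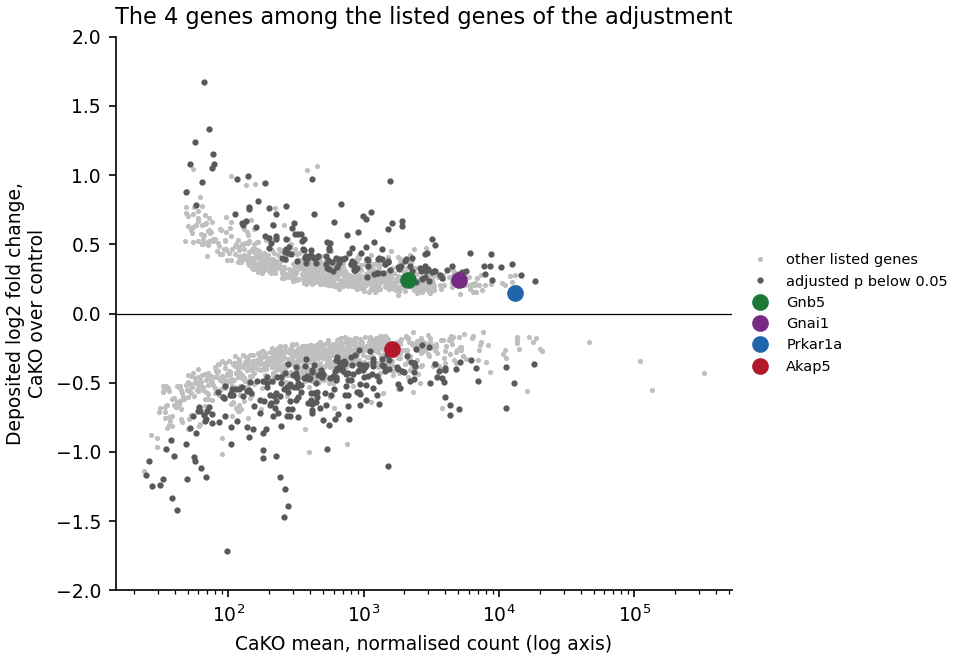
CaKO mean in normalised counts (log axis) against the deposited log2 fold change, CaKO over control, for 2033 named genes that entered the adjustment and are listed; the empty band around 0 arises because only such genes are listed, and 1 gene lies outside the plotted range. Dark points passed an adjusted p of 0.05; Gnb5, Gnai1, Prkar1a and Akap5, in colour, lie among abundant genes with small fold changes.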

How the data were processed

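RNA of 8 mPFC samples was sequenced as poly-A-selected paired-end libraries, 4 CaKO and 4 control mice, grouped by genotype label. The submitters' processing notes and design text name TopHat2 2.0.12 as the aligner to GRCm38 and HTSeq 0.6.1 as the counter, and also list DESeq2 1.30.1. The deposited signal values of the CaKO libraries are read counts that the authors scaled with a single factor for each library and not by gene length, whatever the FPKM in the table's name: 100% of the values were whole multiples of 1 step per library (0.994 to 1.04, tolerance 0.01). The deposited log2 fold changes and p-values are the authors' own. Their direction was taken as CaKO over control, because the 18 genes without a CaKO read all have negative values. The adjusted p-values match a Benjamini-Hochberg adjustment of 12938 genes to within a relative difference of 0.00504, and 325 rows with an adjusted p of 1 were treated as outside it. No count test was run, because control values were not analysed here.

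Rows were named by exact position (2266), by at least 80% mutual overlap (89) or not at all (17). The implied control level is the CaKO mean divided by the fold change. It holds no spread of the controls, so the place of CaKO libraries beside it is a description and no test. Standard errors and 95% intervals were derived from the deposited p under a normal approximation. Since only genes with an unadjusted p below 0.05 are listed, every such interval excludes 0. When a CaKO library was left out, the fold change was recomputed and the standard error widened for 3 libraries. A result was then called where its p did not exceed 0.00162, the highest among called genes. Simulated data were used to test the number of genes in the adjustment, the step per library and the recomputed fold change. The widened standard error and the rule for calls were not tested. No transcript of another gene matched the 4 genes at 98% identity or more over 200 bases and 50% of either transcript (BLAST 2.17.0). Analyses used Python 3.11.15, pandas 2.3.3 and scipy 1.17.1. Genes named were the 4 genes, all list genes with an unadjusted p below 0.05 (at most 30), and for each of the 4 the 3 closest profiles. Some marker genes of the lists are not reported here. The 4 genes and the lists were chosen with earlier results of these data known. Counting variation given in the text covers counting error only, since reads are not independent molecules.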

Additional observations from a re-analysis of the deposited data

Results flagged for a closer look

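Of 23 G protein and PKA genes screened, 2 had a CaKO library far from the other 3. Rgs12 was lowest in CaKO replicate 2, at 469.9 normalised counts against 594.0 to 602.4 in the other CaKO libraries, a gap of 0.936 of the whole range. Rgs20 was lowest in CaKO replicate 3, at 305.2 against 405.4 to 425.8, a gap of 0.83 of the range. Chance alone flags about 1 in 20 groups. Gnb5, Gnai1, Prkar1a and Akap5 had no such library.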

How the results depend on the processing

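The directions of Gnb5, Gnai1, Prkar1a and Akap5 were the same under the alternatives that recompute the fold change. These alternatives vary only the CaKO values against a fixed implied control level. Of the CaKO values, only Gnai1 in CaKO replicate 4 lay on the other side of that level. A change of direction could therefore hardly arise, and the directions were not tested in this way. Leaving out each CaKO replicate in turn gave log2 fold changes of 0.19 to 0.29 for Gnb5, 0.19 to 0.32 for Gnai1, 0.13 to 0.16 for Prkar1a and -0.31 to -0.23 for Akap5. The number of the 4 genes called was 0 to 1, the 1 being Akap5 without CaKO replicate 1, and the number of pathway genes called was 1 (without CaKO replicate 3) to 4, against 3 with all libraries. Only the 2047 listed genes of the adjustment could be called in this way. Of these, 193 were called without CaKO replicate 3 and 339 to 406 without another CaKO replicate, against 419 with all libraries. The calls were partly other genes: 180 of the 193, and 296 to 326 of the others, were shared with the 419. The cause was not tested. With a threshold of 0.1 on the adjusted p, 1 of the 4 genes passed (Akap5, -0.26), as did 6 pathway genes. At an unadjusted p below 0.05, 4 of the 4 genes (Gnb5 0.24, Gnai1 0.24, Prkar1a 0.14 and Akap5 -0.26) and 23 pathway genes passed, by construction of the table. Scaling the CaKO libraries to equal sums, or averaging log2 values with a pseudocount of 0.5 or 1, left 0 of the 4 genes called. Asking for a fold change beyond the CaKO range or for a minimum CaKO mean of 10 or 100 could only remove calls and so says nothing here, since the adjusted p could not be recomputed with most tested genes having no value. Leaving out control replicates was not run. No paired analysis was possible because values of the control libraries were not analysed here. Counting limits little at these depths: the expected counting variation of the 4 genes was 0.876% to 2.51% of the mean. Total depth and the controls' spread are unknown.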
